A study of Mus musculus with 6 samples.

Results

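Axon guidance ligands and receptors were examined in neural stem cells and progenitors of adult mice with and without active SIRT1, an NAD-dependent deacetylase. The genes were taken by symbol: the semaphorins and their plexin and neuropilin receptors, the ephrins and Eph receptors, the Slits and Robos, and the netrins with Dcc and the Unc5 genes. They are 71 of the 19937 genes that the arrays measured with a probe set paired with that gene alone, and a gene with several probe sets was read from the set with the highest mean. Ephb2, Ntng2 and the antisense transcript Plxna4os1 also match by name but have no probe set of their own here; the set shared by Ntng2 and a predicted gene differed by 0.003 on the log2 scale. Unc50, a Golgi membrane protein, and Unc5cl, a death domain protein, came in through their symbols alone and are not netrin receptors.

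The 6 cultures came from mice of the 129SV strain at 8 weeks of age, 3 with floxed Sirt1 alleles only (Sirt1lox/lox, the controls) and 3 that also carried Cre (NestinCre;Sirt1lox/lox, here called Sirt1 inactive). All mice carried the floxed alleles, and the controls had no Cre. Nestin drives Cre in neural stem and progenitor cells, and how completely the alleles recombined was not analysed here. Cells were grown as neurospheres with EGF and bFGF, plated on coated dishes and collected while dividing at passage 2, and RNA of each culture went onto 1 Affymetrix array. The titles call the cultures biological replicates; the number of mice behind each is not given.

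Guidance cues act through receptor pairs. Secreted class 3 semaphorins bind a neuropilin that signals through a plexin, Slits bind Robos, netrins attract through Dcc and repel through Unc5 proteins, and ephrins bind Eph receptor tyrosine kinases on neighbouring cells, with signals running both ways. In the adult forebrain these systems are known for steering neuroblasts towards the olfactory bulb and, for ephrins and Eph receptors, for acting on proliferation in the stem cell niche. A value below is a log2 RMA expression value, where a difference of 1 is a doubling. Values are not compared between genes, since each probe set responds to its own transcript.

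Epha3 and Nrp2 are receptors with the lowest relative levels in the Sirt1 inactive cultures among members whose groups did not overlap. Slit2 is the member that varied most between controls. The promoters of these genes are shown. Each is the 250 bases before the transcription start, 5′ to 3′ on the gene's strand, from RefSeq on GRCm38.p6. Epha3 lies at chr16:63864176-63864425 (minus strand), Nrp2 at chr1:62703067-62703316 (plus) and Slit2 at chr5:47982905-47983154 (plus). Capitals mark the GC box GGGCGG and the TATA box TATAAA, each searched on both strands.
Epha3: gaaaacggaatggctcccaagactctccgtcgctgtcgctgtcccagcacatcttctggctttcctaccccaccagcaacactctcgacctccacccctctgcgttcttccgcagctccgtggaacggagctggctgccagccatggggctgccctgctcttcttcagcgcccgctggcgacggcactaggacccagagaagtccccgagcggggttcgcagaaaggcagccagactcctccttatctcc
Nrp2: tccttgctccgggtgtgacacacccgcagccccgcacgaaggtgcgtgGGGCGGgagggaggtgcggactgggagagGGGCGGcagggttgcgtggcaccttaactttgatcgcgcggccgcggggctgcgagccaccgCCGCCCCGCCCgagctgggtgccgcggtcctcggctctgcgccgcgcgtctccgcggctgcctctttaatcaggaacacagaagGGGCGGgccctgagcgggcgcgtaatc
Slit2: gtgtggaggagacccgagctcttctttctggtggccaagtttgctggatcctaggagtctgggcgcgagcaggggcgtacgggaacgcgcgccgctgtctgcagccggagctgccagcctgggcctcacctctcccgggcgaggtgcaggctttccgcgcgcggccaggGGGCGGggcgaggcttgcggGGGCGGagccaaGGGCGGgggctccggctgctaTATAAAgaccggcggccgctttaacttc

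Nrp2 holds 5 GC boxes, among them an overlapping pair, and Slit2 holds 3 and a TATA box, with no overlap between these motifs. Epha3 matches neither motif in this window. A GC box stands in 32.8% and a TATA box in 12.4% of all 32841 windows of this length in the table, which also holds non-coding genes. Among the 77 windows of the 61 members found in it, the shares were 72.7% and 2.60%. Efnb3, Slit1 and Plxna4, which the results also name, were not among these 61 members, so their promoters could not be shown. CpG dinucleotides number 16 in Epha3, 32 in Nrp2 and 25 in Slit2, against a median of 6 over all windows. These are descriptions of sequence, and no binding was measured.

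Sirt1 itself read 8.73, 8.78 and 8.55 in the controls and 8.26, 8.33 and 8.25 in the Sirt1 inactive cultures. The difference was -0.41 (SE 0.08), and it did not pass over all probe sets (limma, adjusted p = 0.959). Array medians lay between 7.36 and 7.39. The 14 measured neural stem cell markers had list means of 10.01 to 10.18 in every array, and microglial and endothelial markers had list means of 6.71 to 6.85 and 6.84 to 6.95. Such means are read across arrays only, since the lists hold different genes, and they do not rank cell types. Control replicate 3 stood apart: its median absolute distance to the mean of the others was 0.155 over the guidance genes and 0.117 over all tested probe sets, against at most 0.124 and 0.089 in any other array.

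Between the genotypes, no guidance gene passed the test over all probe sets. The count was 0 of 71, where 0% of the 22961 tested probe sets passed, and the smallest adjusted p among the members was 0.959 (limma). At an unadjusted p under 0.05 there were 5 members, Efnb3, Slit1, Epha3, Plxna4 and Nrp2, all lower without active SIRT1. That is 7.04% of the members beside 3.61% of all probe sets (2.63% lower and 0.984% higher). Groups did not overlap for 7 members, or 9.86%, beside 9.33% of all probe sets, so this share is near the background. All 7 were lower: Efnb3, Slit1, Epha3, Nrp2, Sema4c, Sema3b and Sema4a; 6.71% of all probe sets were lower without overlap and 2.62% higher. In all, 49 of 71 members had a difference below 0, or 69.0%, beside 61.0% of all genes and 60.1% of all probe sets. The median difference was -0.06, beside -0.02 over all genes, and 40 members differed by less than 0.1 in either direction. With array medians subtracted, 64.8% of members and 49.6% of all genes were below 0.

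The counts turned on single cultures. Without control replicate 1, 10 members had an unadjusted p under 0.05, beside 6.33% of all probe sets. Of these 7 were lower and 3 higher, the higher ones being Epha2, Ephb4 and Sema3d. The share of members below 0 was then 57.7%, beside 61.5% of all genes. Without control replicate 2 the count was 6, beside 4.88%, with Epha4, Robo2 and Sema4b higher and Epha3, Plxna4 and Slit1 lower. Without control replicate 3, the array that stood apart, it was 5, beside 2.81%, with Efna5 in the place of Plxna4, and 78.9% of members were below 0, beside 54.6% of all genes. Without Sirt1 inactive replicate 1 it was 2, Efnb3 and Slit1, beside 3.56%, and without Sirt1 inactive replicate 2 it was 1, Slit1, beside 1.99%. Without Sirt1 inactive replicate 3 it was 4, beside 2.70%, namely Efnb3, Nrp2, Plxna4 and Sema7a. Slit1 was not among these 4 (limma, unadjusted p = 0.067).

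**Figure D1:**
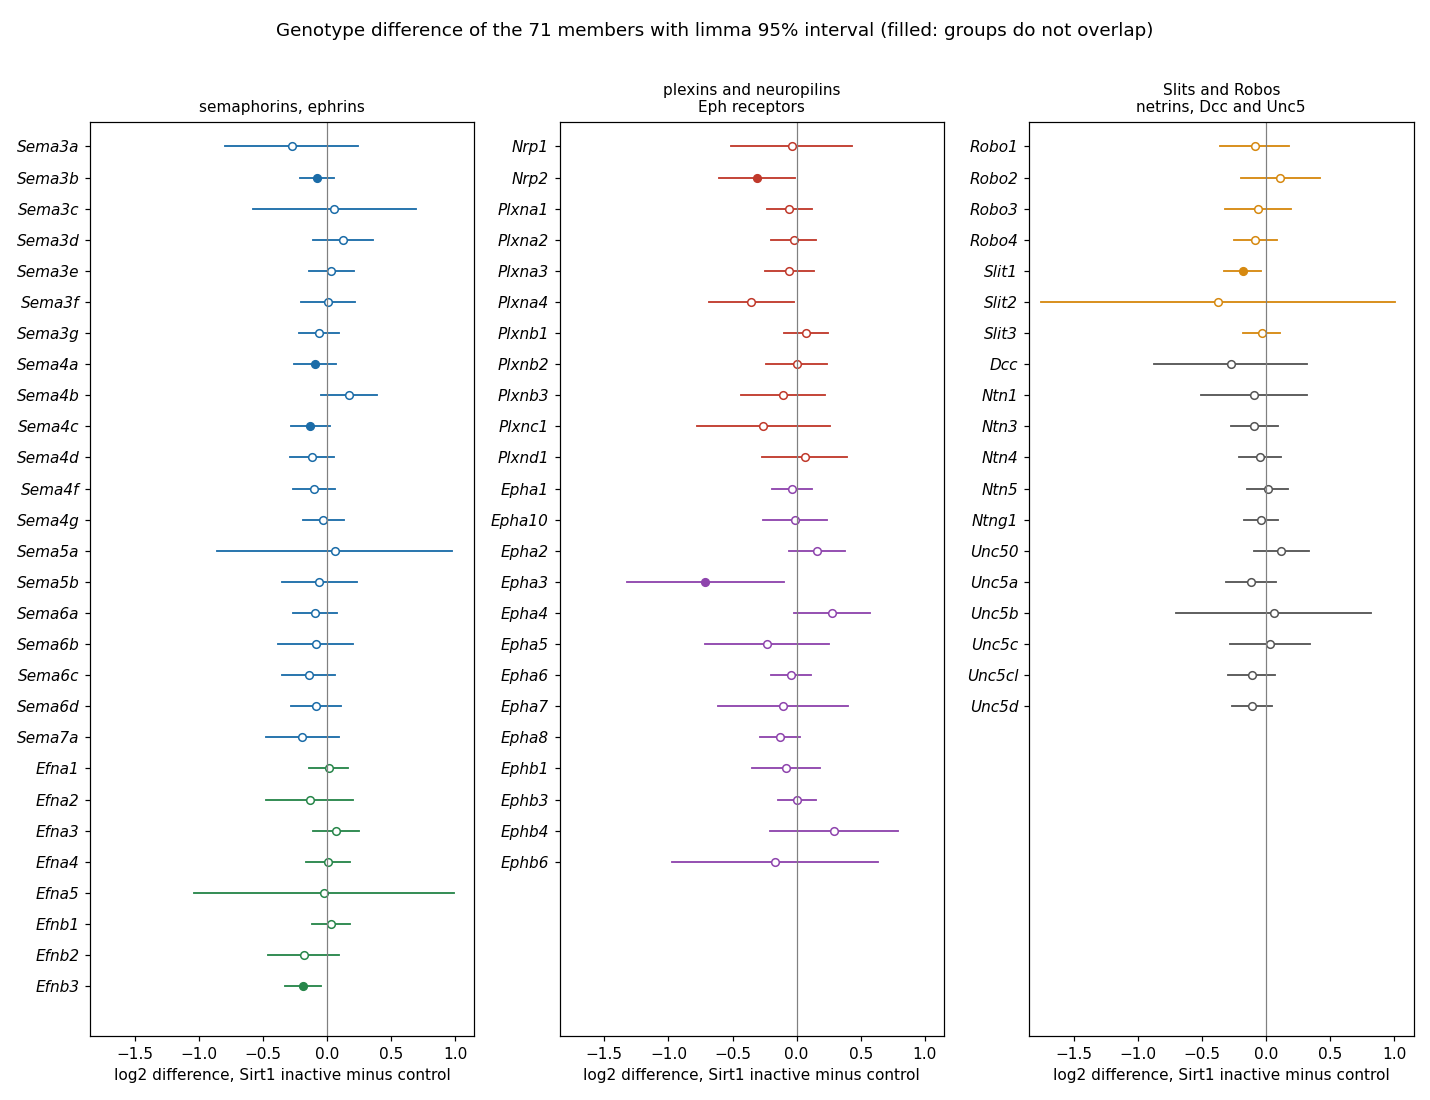
Log2 difference, Sirt1 inactive minus control, for each of the 71 genes (horizontal axis) with its limma 95% interval, by family. Filled points mark the 7 genes whose 3 and 3 values did not overlap, all below 0; Slit2, Efna5 and Sema5a have the widest intervals.

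Semaphorins, the largest family here with 20 genes, are secreted in class 3 and membrane-bound in classes 4 to 7. None passed the test, none had an unadjusted p under 0.05, and 14 of 20 were below 0, with a median difference of -0.08. Sema4c, a transmembrane ligand of plexin B2, read 9.12, 9.12 and 9.07 in control and 8.88, 9.03 and 9.02 in Sirt1 inactive cultures. Its groups lay apart by a small gap, with a difference of -0.13 (SE 0.07; limma, unadjusted p = 0.0847), or -0.082 without Sirt1 inactive replicate 1. The exact permutation test gave 0.1 for each of the 7 genes without overlap, the smallest value that 3 against 3 arrays allow.

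Sema3b, a secreted semaphorin, read 7.25, 7.25 and 7.32 against 7.20, 7.17 and 7.21, a difference of -0.08. Sema4a, also known from immune cells, read 6.75, 6.79 and 6.77 against 6.75, 6.72 and 6.56, a difference of -0.10, and its groups were parted by less than 0.01. Without Sirt1 inactive replicate 3 it differed by -0.039. Sema4b, a transmembrane semaphorin, went the other way, with 10.06, 10.24 and 9.89 in control and 10.23, 10.28 and 10.20 in Sirt1 inactive cultures. Here the groups overlapped, and the difference was 0.17 (SE 0.09), or 0.085 without control replicate 3. Sema6c, of the class that binds A-type plexins, differed by -0.14, with 7.55, 7.65 and 7.83 in control and 7.44, 7.60 and 7.56 without active SIRT1. Without control replicate 3 it differed by -0.066. All 4 measured class 6 genes were below 0, as were 5 of the 6 of class 4.

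Sema6a and Sema6d, of the same transmembrane class, had the semaphorins' brightest probe sets, above the upper quartile of every array (9.11 to 9.17). Sema6a read 11.39, 11.35 and 11.31 in control and 11.26, 11.14 and 11.36 in Sirt1 inactive cultures. For Sema6d the values were 11.10, 11.09 and 11.03 against 10.96, 10.86 and 11.14. Both genes varied little: the differences, -0.09 for each, were smaller than the range of the Sirt1 inactive arrays.

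Plexins and neuropilins gave 2 of the 5 members at an unadjusted p under 0.05, and 8 of 11 were below 0, with a median of -0.06. Nrp2, the neuropilin that binds Sema3f and Sema3c, read 8.00, 7.80 and 7.77 in control and 7.61, 7.29 and 7.74 in Sirt1 inactive cultures. The groups did not overlap, but replicate 3 of each genotype lay close together. Nrp2 averaged 0.807 times its control level, a difference of -0.31 (SE 0.13, 95% interval -0.61 to -0.01) (limma, adjusted p = 0.959; unadjusted p = 0.0424). Without Sirt1 inactive replicate 2 it differed by -0.18.

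Plxna4, the plexin that carries Sema3a and Sema6a signals, read 8.73, 8.23 and 8.39 in control and 8.01, 8.00 and 8.28 in Sirt1 inactive cultures. Replicate 3 of the Sirt1 inactive group lay above the lowest control, and all 3 same-numbered pairs were lower. Its difference was -0.35 (SE 0.14), a level of 0.783 times control (limma, unadjusted p = 0.0404). Without control replicate 1 it differed by -0.21. The other A-type plexins differed little: Plxna1 read 10.28, 10.27 and 10.07 against 10.17, 10.13 and 10.16. Plxnb2, a plexin of neural progenitors and the brightest probe set among the 71, read 11.70, 11.51 and 11.31 against 11.55, 11.44 and 11.53, with a mean of 11.51 in each genotype. The 95% interval of its difference ran from -0.24 to 0.24.

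Ephrins divided evenly around 0, with 4 of 8 on each side and a median of -0.01. Efnb3, a transmembrane ephrin known as a midline barrier to axons, had the smallest p of all 71 genes. It read 8.36, 8.41 and 8.37 in control and 8.17, 8.15 and 8.26 in Sirt1 inactive cultures. The control arrays spanned 0.05 and lay above every Sirt1 inactive array. Efnb3 averaged 0.877 times its control level, a difference of -0.19 (SE 0.06, 95% interval -0.33 to -0.05; limma, adjusted p = 0.959; unadjusted p = 0.0156). Efnb1, a transmembrane ephrin encoded on the X chromosome, read 9.23, 9.27 and 9.16 against 9.19, 9.28 and 9.29. Efna2, which is tethered to the membrane by a lipid anchor, read 9.07, 9.37 and 9.53 against 8.97, 9.36 and 9.24. In both the genotypes overlapped.

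Eph receptors held the largest difference in either direction: 9 of 13 were below 0, with a median of -0.04 and a range of -0.71 to 0.29. Epha3, a receptor of A-type ephrins, read 7.63, 6.75 and 6.56 in control and 6.33, 6.11 and 6.37 in Sirt1 inactive cultures. Every control was higher than every Sirt1 inactive array, but control replicate 1 stood well above the other controls. Epha3 averaged 0.611 times its control level, a difference of -0.71 (SE 0.26, 95% interval -1.32 to -0.10; limma, adjusted p = 0.959; unadjusted p = 0.0281). Without control replicate 1 it was -0.39. The genotype means were 6.98 and 6.27, below the median of every array, and the files hold no detection call that would set such values against background.

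Epha4, a receptor of both ephrin classes that is found on neural progenitors and astrocytes, was higher in the Sirt1 inactive culture of every replicate number. It read 8.17, 8.35 and 7.83 in control and 8.33, 8.40 and 8.45 without active SIRT1. The difference was 0.28 (SE 0.13; limma, unadjusted p = 0.0654), and 0.13 without control replicate 3. Epha8 read 7.33, 7.45 and 7.49 against 7.26, 7.35 and 7.28, a difference of -0.13. Epha2 read 8.00, 7.76 and 7.67 against 7.99, 7.91 and 8.01, a difference of 0.16; here control replicate 1 lay among the Sirt1 inactive arrays. Without that control it was 0.25, and without control replicate 3 it was 0.090. Ephb3, a receptor of B-type ephrins, hardly varied, with 8.80, 8.81 and 8.73 against 8.72, 8.76 and 8.86. Epha6 read 5.36 in control and 5.31 without active SIRT1 and was the only member below the lower quartile of all 6 arrays.

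**Figure D2:**
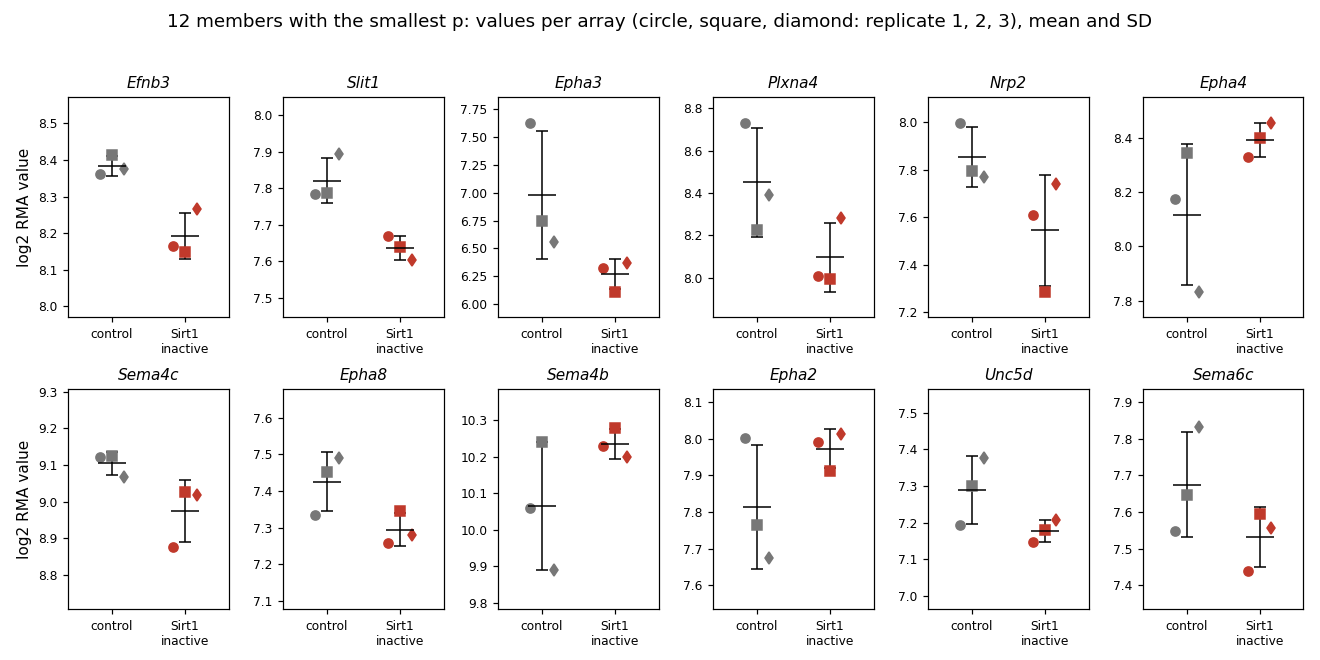
Log2 RMA value (vertical axis, scaled per gene) of the 12 genes with the smallest p in each control (grey) and Sirt1 inactive (red) array; circles, squares and diamonds are replicates 1, 2 and 3, and bars give the mean and SD of 3 arrays. Efnb3, Slit1, Epha3, Nrp2 and Sema4c separate without overlap, each lower in the Sirt1 inactive cultures, while Epha4, Sema4b and Epha2 have higher means there.

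Among Slits and Robos 6 of 7 were below 0, with a median of -0.08. Slit1, a secreted repellent, read 7.78, 7.79 and 7.89 in control and 7.67, 7.64 and 7.60 in Sirt1 inactive cultures. The groups did not overlap, and Slit1 averaged 0.881 times its control level, a difference of -0.18 (SE 0.06, 95% interval -0.33 to -0.04; limma, adjusted p = 0.959; unadjusted p = 0.0189). Slit3 read 7.25 ± 0.05 against 7.21 ± 0.05 (SD, n = 3). Robo1 and Robo2, the Slit receptors of migrating neurons, overlapped between the genotypes. For Robo1 the values were 9.70, 9.50 and 9.57 against 9.45, 9.73 and 9.32, and for Robo2 8.68, 9.00 and 8.46 against 8.81, 8.89 and 8.76. Robo4, an endothelial Robo, read 6.78 ± 0.11 against 6.70 ± 0.02 (SD, n = 3).

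Netrins, Dcc and the Unc5 genes included no member at an unadjusted p under 0.05 and none without overlap; 8 of 12 were below 0, with a median of -0.07. Unc5d, a netrin and Flrt receptor of migrating neurons, read 7.19, 7.30 and 7.38 against 7.15, 7.18 and 7.21, a difference of -0.11 (SE 0.07), or -0.068 without control replicate 3. Ntn1, the founding secreted netrin, read 10.66, 10.12 and 9.95 in control and 10.28, 10.10 and 10.06 in Sirt1 inactive cultures, a spread set by control replicate 1. Unc50 read 10.11, 10.23 and 9.99 against 10.13, 10.37 and 10.19.

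Several members varied widely between the control cultures. A range over the 3 controls above 0.75 was found for 14 of 71 genes, or 19.7%, beside 3.83% of all genes; the limit was set after the values were seen. Epha5 at 0.77 lay just inside it and Ntn1 at 0.71 just outside. In the Sirt1 inactive group 2 members passed the same limit, Slit2 and Ephb6, beside 0.637% of all genes. The control range was the wider for 55 of 71 members, or 77.5%, beside 60.0% of all genes. Control replicate 3 was the lowest of the 6 arrays for 24 members (33.8%, beside 17.4% of all genes) and the highest for another 24 (33.8%, beside 37.8%).

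**Figure D3:**
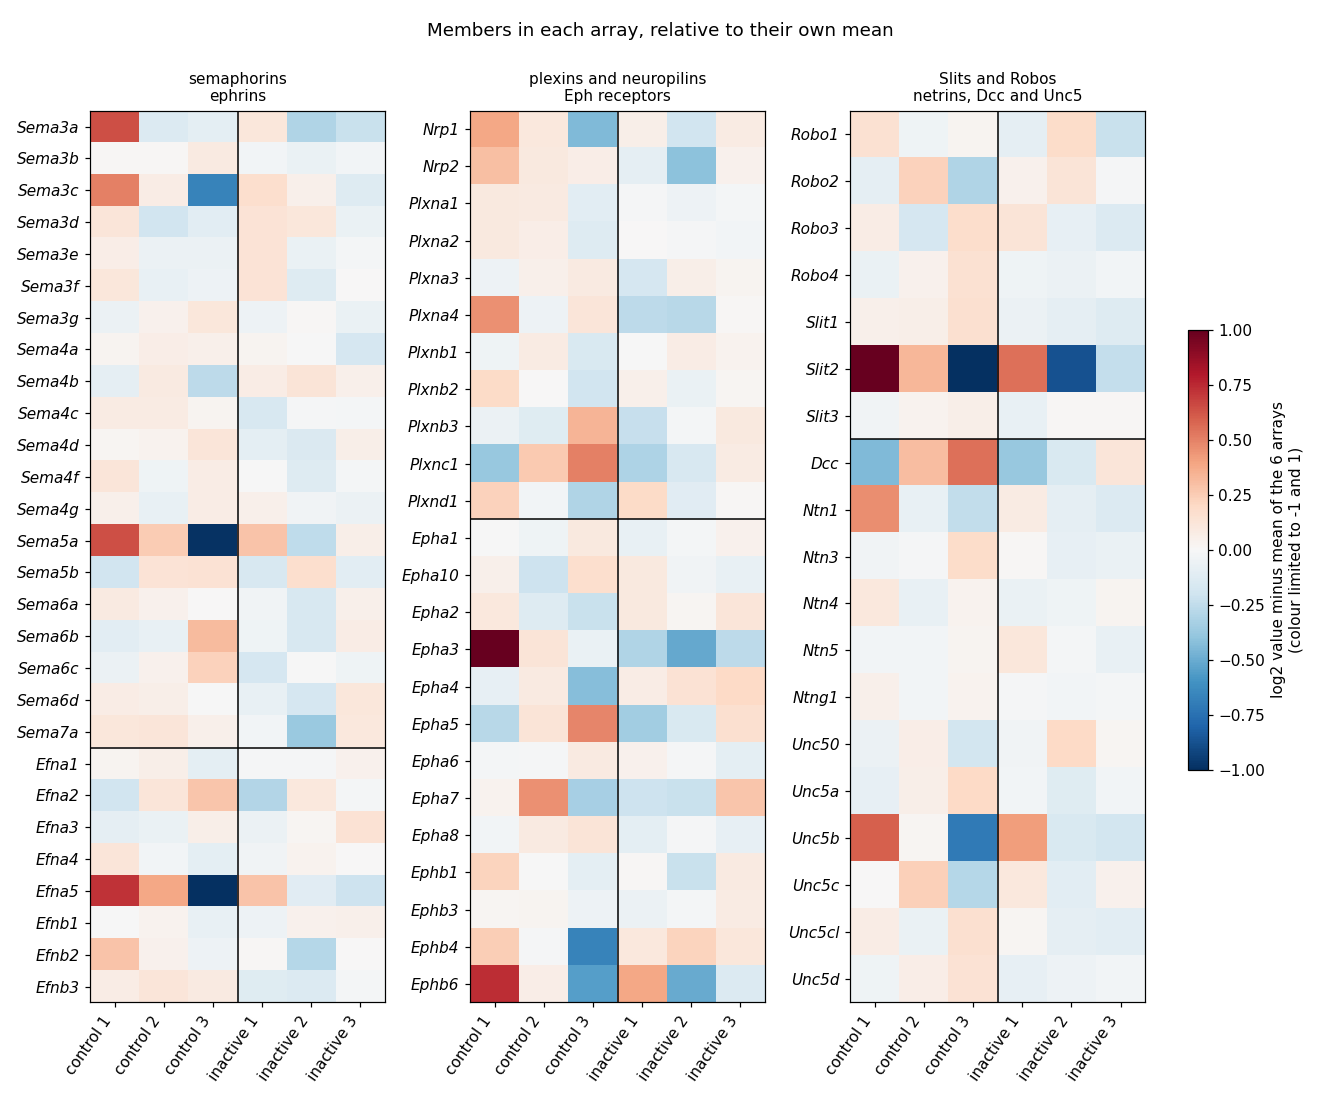
Colour map of each gene's log2 value minus its own mean over the 6 arrays, with genes by family down the side and arrays across; the vertical line parts controls from Sirt1 inactive cultures and colours are limited to -1 and 1. Control replicate 3 holds deep blue cells for Slit2, Efna5, Sema5a, Unc5b, Ephb4 and Sema3c and red cells for Dcc, Plxnc1 and Epha5, and Slit2 is also deep blue in Sirt1 inactive replicate 2.

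Slit2, the Slit best known as a repellent of neuroblasts, read 9.72, 8.79 and 7.44 in control and 9.01, 7.59 and 8.22 in Sirt1 inactive cultures. Control replicates 1 and 3 lay 2.28 apart, the widest control range among the members. Efna5, a lipid-anchored ephrin, read 8.96, 8.63 and 7.17 against 8.53, 8.13 and 8.04. Sema5a, a membrane semaphorin with thrombospondin repeats, read 9.30, 8.92 and 7.68 against 8.94, 8.41 and 8.72. Unc5b, a netrin receptor also of endothelium, read 9.27, 8.69 and 7.97 against 9.10, 8.52 and 8.49. In these 4 genes control replicate 3 was the lowest of all 6 arrays and control replicate 1 the highest.

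Ephb6, an Eph receptor without kinase activity, showed the same order of controls, with 9.22, 8.55 and 7.94 against 8.88, 7.99 and 8.35. Sema3c, a secreted semaphorin, read 8.17, 7.74 and 7.00 against 7.83, 7.71 and 7.53. Nrp1, the Sema3a and VEGF co-receptor, read 9.48, 9.20 and 8.65 against 9.15, 8.90 and 9.17. Ephb4, a receptor of Efnb2 known from veins, read 8.82, 8.56 and 7.90 against 8.68, 8.80 and 8.69. Epha7, an ephrin A receptor, read 7.75, 8.17 and 7.38 against 7.50, 7.49 and 7.99. Control replicate 3 was the lowest array for each of these 5 genes, in Epha7 with control replicate 2 the highest.

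Dcc, Plxnc1 and Epha5 were instead highest in control replicate 3. Dcc, the attractive netrin receptor of neurons, read 6.95, 7.69 and 7.94 in control and 7.01, 7.24 and 7.51 in Sirt1 inactive cultures. Plxnc1, the plexin that binds Sema7a, read 8.53, 9.17 and 9.41 against 8.60, 8.75 and 8.99. Epha5, an ephrin A receptor of neurons, read 8.63, 9.03 and 9.39 against 8.56, 8.75 and 9.06. In each of the 3 genes replicate 1 was lowest and replicate 3 highest within both genotypes. Sema3a, the secreted repellent that acts through Nrp1, was high in control replicate 1, with 9.52, 8.74 and 8.77 against 8.99, 8.57 and 8.65.

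**Figure D4:**
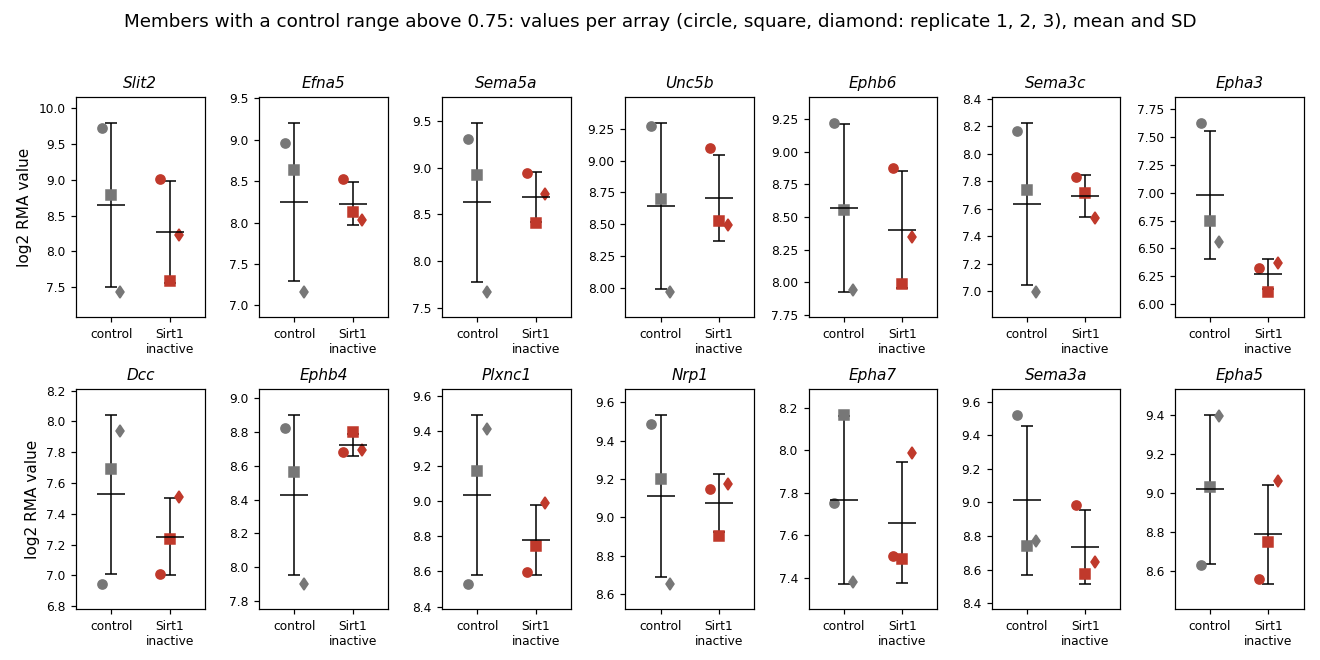
Log2 RMA value (vertical axis, scaled per gene) of the 14 genes with a control range above 0.75, in control (grey) and Sirt1 inactive (red) arrays; circles, squares and diamonds are replicates 1, 2 and 3, and bars give the mean and SD of 3 arrays. Control replicate 3 is the lowest array for 9 of the 14 genes and the highest for Dcc, Plxnc1 and Epha5.

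Marker levels of other cell types also differed in control replicate 3. The mean of 14 astrocyte markers was 10.08 in control replicate 3 and 10.59 to 10.68 in the other 5 arrays. Gfap, the filament protein of astrocytes, read 9.55, 9.87 and 7.41 in control and 10.12, 10.25 and 9.65 in Sirt1 inactive cultures. The mean of 19 neuroblast and neuron markers was 8.22 in control replicate 3, 7.95 and 8.06 in the other controls, and 7.90 to 7.99 in Sirt1 inactive cultures. Mural cell and fibroblast markers, 13 in number, averaged 7.60 there and 7.92 to 8.12 elsewhere. Between genotypes no marker passed the adjusted test (limma, smallest adjusted p = 0.959). Of 14 oligodendrocyte progenitor markers, 4 were higher and 1 lower at an unadjusted p under 0.05, beside 3.61% of all probe sets, and 7 lay on each side of 0. The 4 higher markers did not overlap between genotypes, and 1 marker was lower without overlap, beside 9.33% of all probe sets without overlap. The 4 were Gpr17, a receptor of committed progenitors, at 0.75, C1ql1 at 0.44, the transcription factor Sox10 at 0.28 and the growth factor receptor Pdgfra at 0.79. Control replicate 3 was the lowest array for each of the 4. Pdgfra read 8.80, 8.36 and 7.485 in control and 9.33, 8.85 and 8.84 in Sirt1 inactive cultures, so its groups were parted by a small gap. The list mean was 9.77, 9.82 and 9.82 in control and 9.996, 9.82 and 9.94 without active SIRT1. Of 19 neuroblast and neuron markers 13 were below 0, or 68.4%, beside 61.0% of all genes, and 6 were above. Among them 3 had such a p, all lower: the synaptic vesicle protein Syt1 at -0.39, the growth cone protein Gap43 at -0.31 and Dcx, a microtubule protein of neuroblasts, at -0.31. Of 14 astrocyte markers 11 were above 0, and at such a p Atp1b2 was higher at 0.19 and Sox9 lower at -0.25. Control replicate 3 was the lowest array for 10 of these 14. Microglial markers were below 0 for 12 of 14, beside 61.0% of all genes. Groups did not overlap for 5 of the 14, all lower, with Tmem119 at -0.19, beside 6.71% of all probe sets lower without overlap. The median difference of the 14 was -0.07. Their list means, 6.71 to 6.85, lay below the median of every array (7.36 to 7.39). Without a detection call, whether these markers were expressed in the cultures cannot be told.

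No array had a marker at 0, since RMA gives a value to every probe set. The part of these cells in the guidance genes' values was not tested, and in bulk RNA fewer cells of a type and less RNA per cell cannot be told apart.

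Within replicate numbers the members' differences were not alike. In number 1, 49 of 71 members were lower without active SIRT1 (69.0%, beside 55.4% of all genes), and in number 2, 51 were (71.8%, beside 52.7%). In number 3 it was 37 (52.1%, beside 63.2%). Lower in numbers 1 and 2 and higher in number 3 were 20 members, or 28.2%, beside 10.4% of all genes. Lower in all 3 were 18, or 25.4%, beside 21.1%. Slit2 differed by -0.71 in number 1, -1.20 in number 2 and 0.78 in number 3. Sema5a differed by -0.36, -0.51 and 1.04, and Efna5 by -0.44, -0.50 and 0.87. Slit2, Sema5a and Efna5 are among the genes chosen for a wide control range. The same control values enter their differences, so their pattern over the numbers is not independent of that choice.

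**Figure D5:**
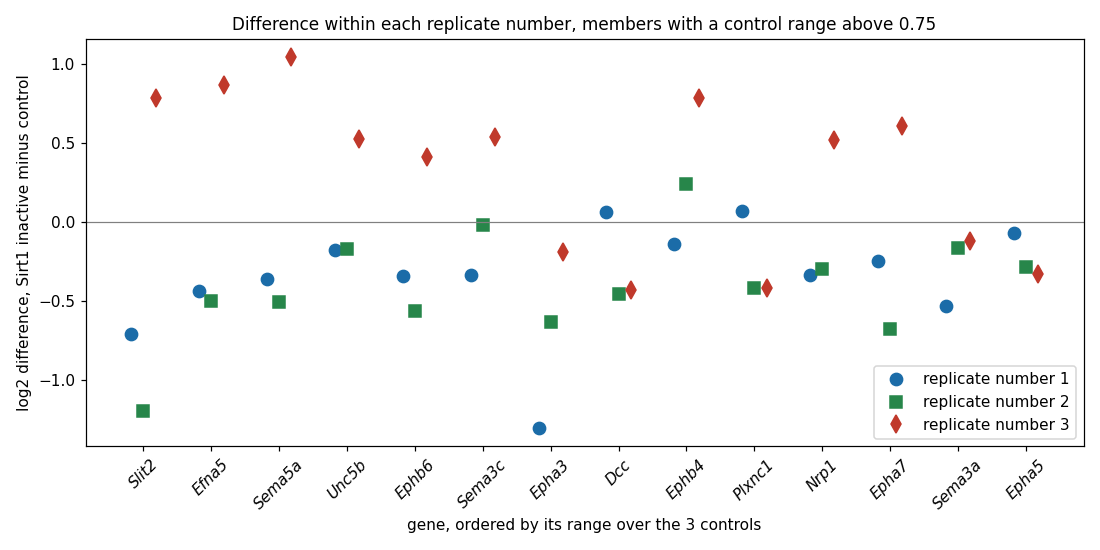
Log2 difference, Sirt1 inactive minus control (vertical axis), within replicate number 1 (circles), 2 (squares) and 3 (diamonds) for the 14 genes with a control range above 0.75. For 8 of the 14, Slit2 and Efna5 among them, numbers 1 and 2 lie below 0 and number 3 above it. Epha3, Sema3a and Epha5 lie below 0 in all 3. The 14 genes were chosen for a wide range of the same control values that enter these differences, so the pattern is not independent of that choice.

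With the replicate number as a block, 0 members passed (limma, smallest adjusted p = 0.656), and 7 had an unadjusted p under 0.05, all lower, beside 7.58% of all probe sets (5.08% lower). The added genes were Epha5 and Sema3a. When number 3 was dropped in both genotypes under the same block, 16 of 71 members, or 22.5%, had an unadjusted p under 0.05, all of them lower, beside 8.59% of all probe sets (5.70% lower). That fit rests on 4 arrays, and 0 members passed the adjusted threshold, beside 0.0827% of all probe sets. With so few arrays its SEs lean mostly on the variance that limma pools over all probe sets. Number 3, where the fewest members were lower, was dropped with earlier results known, so these counts are no independent support for a direction. The block was not fitted without number 1 or without number 2. Its largest differences were Epha3 at -0.97 (SE 0.15; limma, adjusted p = 0.125) and Slit2 at -0.96 (SE 0.12; adjusted p = 0.0910). Plxna4 was at -0.48, Efna5 at -0.47, Epha7 at -0.46, Ephb6 at -0.46, Nrp2 at -0.45, Sema5a at -0.43, Sema3a at -0.35, Nrp1 and Sema7a at -0.32 each, and Efnb2 at -0.30. Efnb3 at -0.23, Ephb1 at -0.22, Sema6d at -0.19 and Unc5b at -0.17 made up the rest. With control replicate 3 alone left out and no block, Slit2 was at -0.98 and Efna5 at -0.57. Over all 6 arrays Slit2 differed by -0.38 (SE 0.59), with a 95% interval of -1.75 to 1.002.

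Genes that act with these receptors were read from lists of effectors, and none passed in either direction. Of 25 semaphorin, plexin and neuropilin effectors 18 were below 0 (median -0.08), and 3 had an unadjusted p under 0.05, all lower, beside 2.63% of all probe sets. Mical2, an actin-oxidising enzyme, read 9.97, 9.51 and 9.68 against 9.50, 9.15 and 9.34, a difference of -0.39 without overlap. Dpysl5 and Dpysl3, cytosolic phosphoproteins of semaphorin signalling, differed by -0.22 and -0.20, and the kinase Cdk5 by -0.09. Of 21 Eph and ephrin effectors 17 were below 0 (median -0.04) and 0 had such a p, with the Rac regulators Tiam1 at -0.13 and Chn1 at -0.25, Src at -0.14 and Ngef at -0.09.

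Of 14 Slit and Robo effectors 12 were below 0 (median -0.04), and 2 had such a p, both lower. Srgap3, a GTPase-activating protein that binds Robo, read 9.22, 9.15 and 9.21 against 8.97, 8.98 and 9.06, which did not overlap. It differed by -0.19, its relative Srgap1 by -0.21, and the actin regulators Enah and Evl by -0.15 and -0.18. Of 19 netrin, Dcc and Unc5 effectors 15 were below 0 (median -0.09), and 1, Flrt2, had such a p. Flrt2, an Unc5 ligand, differed by -0.20, Draxin, a secreted Dcc ligand, by -0.34, and the exchange factors Trio and Dock1 by -0.12 and -0.15. Of 27 other guidance cues and adhesion genes 23 were below 0 (median -0.10), and 2, Lingo1 and Ptprd, had such a p. Among them were Ptprd at -0.60, Lingo1 at -0.28, Rtn4r at -0.18 and Cntn2 at -0.13. These counts stand beside 61.0% of all genes below 0.

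The counts below 0 in some of these lists depended on the scaling used. With array medians subtracted, which put 49.6% of all genes below 0, the Eph and ephrin list had 11 of 21 below 0 and the Slit and Robo list 7 of 14. The semaphorin list then had 16 of 25, the netrin list 13 of 19 and the other cues 22 of 27. That scaling moved the median of all genes by less than 0.1. After renewed quantile normalization, with 52.1% of all genes below 0, the Eph and ephrin list had 17 of 21 below 0. The Slit and Robo list then had 10 of 14, the semaphorin list 16 of 25, the netrin list 15 of 19 and the other cues 23 of 27.

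For Sema4d, Ntng1, Epha10, Unc5d and Ephb1 the arrays carry another probe set. Each of these gave a difference of the same sign as the set used, from -0.09 for Ntng1 to -0.01 for Sema4d and Unc5d. The sets used gave -0.12 for Sema4d, -0.11 for Unc5d, -0.08 for Ephb1, -0.04 for Ntng1 and -0.01 for Epha10. The other set thus showed a smaller difference for Sema4d, Unc5d and Ephb1 and a larger one for Ntng1 and Epha10. A shared sign says little here, since 60.1% of all probe sets were below 0.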

How the data were processed

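Per the submitters' processing notes the authors ran RMA, and they deposited 1 log2 value for each probe set on each array. Neither RMA's version nor the genome build was found in the labels. RMA corrects background, draws arrays to nearly the same distribution and compresses differences of dim probe sets. Of 34760 probe sets, the 22961 that GEO's annotation of the platform pairs with any gene were tested; 21640 of these have 1 gene only. Differences are Sirt1 inactive minus control, fitted over 6 arrays with limma 3.58.1 in R 4.3.3, two-sided, Benjamini-Hochberg adjusted over all tested probe sets at 0.05. The fit was tested on simulated data with independent noise in each array. Those data held no replicate pairing and no outlying array, so the fit was not tested on data with such structure. No set test was run, and lists are described by counts and medians.

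Arrays have no depth; their number limits precision, and the members' median SE was 0.091. Whether cultures share mice is not stated, so p-values measure the spread between these cultures. The labels do not say whether a replicate number marks a shared litter or culture day. Treating same-numbered cultures as pairs rests on these data alone. Deviations from the group means correlated at 0.47, 0.36 and 0.27 across probe sets within numbers 1, 2 and 3. The members, lists and alternatives were chosen with earlier results of these data known. Values per array are given for members without overlap, the 12 with the smallest p, the 2 brightest per family and, chosen after values were seen, those with a wide control range; for each list up to 4 genes with the smallest p were eligible for naming. All 71 members are in RefSeq's GRCm38.p6 gene table under the same symbols.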

Additional observations from a re-analysis of the deposited data

How the results depend on the processing

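No member passed the adjusted threshold under any of 15 alternatives, and over all probe sets 0 passed except 19 with the replicate block and without number 3. At an unadjusted p under 0.05 the members' count of 5 was 16 with the replicate block and without number 3, beside 8.59% of all probe sets. With the replicate block alone it was 7, beside 7.58%. It was 3 with array medians subtracted, beside 3.28%, and 2 of 42 members with dim probe sets left out, beside 2.72%. When single arrays were left out it was 1 to 10 (3 of the 10 higher), beside 1.99% to 6.33%. The members' median difference of -0.06 stayed between -0.08 and -0.04. Over all tested probe sets the count at an unadjusted p under 0.05 was 830 of 22961. It was 1741 with the replicate block, 1972 with the replicate block and without number 3, and 456 to 1453 when single arrays were left out. With other numbers of probe sets tested it was 312 of 11481 with dim probe sets left out and 1376 of 34760 with all probe sets of the table. Of 38 members named with values in every array, 24 kept their direction under every alternative that measured them, Epha3, Nrp2, Plxna4, Efnb3 and Slit1 among them, and 14 turned in at least 1. Without number 3 and with the replicate block the direction turned for Efnb1 (-0.019), Ephb3 (-0.063), Plxnb2 (-0.11), Sema3c (-0.18), Sema5a (-0.43) and Unc5b (-0.17). With array weights it turned for Plxnb2 (-0.0089), Robo2 (-0.070), Sema3c (-0.088), Sema5a (-0.15) and Unc5b (-0.070), and Efna5 turned to 0.00033 with array medians subtracted and 0.013 after renewed quantile normalization. With single arrays left out the differences that turned ranged from -0.57 to 0.33 for Efna5, -0.98 to 0.16 for Slit2, -0.48 to 0.16 for Ephb6, -0.42 to 0.39 for Sema5a, -0.28 to 0.37 for Unc5b, -0.26 to 0.32 for Sema3c, -0.30 to 0.093 for Epha7, -0.27 to 0.15 for Nrp1, -0.24 to 0.11 for Ntn1, -0.20 to 0.0013 for Robo1, -0.097 to 0.096 for Plxnb2, -0.039 to 0.030 for Ephb3, -0.015 to 0.25 for Robo2 and -0.00095 to 0.063 for Efnb1. The cause was not tested.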
